A study of Mus musculus with 4 samples.

Results

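The Cyp2 family other than Cyp2b was represented on the array by 40 genes, out of 31709 genes in all, each chosen because its probe carries a name made of Cyp2, a letter other than b, and a number. Cytochromes P450 are haem enzymes of the endoplasmic reticulum that insert oxygen into drugs, steroids, fatty acids, bile acids and vitamins, using electrons passed on by the reductase Por and by cytochrome b5. The Cyp2 family is the largest of the mouse P450 families, its genes lie in tandem clusters, and near-identical neighbours are common. Many members belong to the most abundant liver mRNAs, several differ between male and female liver, and several Cyp2c and Cyp2j enzymes make epoxides from arachidonic acid.

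The RNA came from the livers of 4 IlrunKO mice and 4 WT mice, all male C57BL/6, kept on chow and fasted for 4 h. Ilrun, a regulator of inflammation and lipids, is deleted in the whole body of the IlrunKO animals; the labels state neither the ages nor the deleted part of the gene, nor whether animals were pooled. Each of 4 two-colour Agilent arrays held 1 IlrunKO and 1 WT sample, and the dyes were swapped: IlrunKO was labelled with Cy5 on arrays 1 and 2 and with Cy3 on arrays 3 and 4. The main p-values set the mean log2 ratio of IlrunKO over WT against the spread between arrays of the same dye orientation. That spread was moderated with the values of all genes tested. All arrays shared 1 slide and 1 scan, between 60.0% and 67.3% of probes were well above background in each channel, and the 4 arrays limit the precision. Ilrun itself lay between 7.76 and 7.99 in the IlrunKO channels and between 12.02 and 12.32 in the WT channels (normalised log2 intensity). In this bulk tissue, fewer cells of a type and less RNA per cell cannot be told apart.

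Of the 40 genes, 36 were tested, and 34 of these were well above background in all 8 channels. A tested gene had its probe well above background in 3 or more channels of 1 genotype. It also had enough arrays left once spots marked as outliers were removed, which Cyp2c68 had not. "Rose" and "fell" are used where the log2 ratio of IlrunKO over WT had an adjusted p under 0.05 in limma, fitted on all 19657 genes that met both conditions. Cyp2j6 rose and Cyp2d40 fell; the other 34 did not pass. This is 2 of 36 members against 270 of all genes tested (1.37%), of which 0.717% rose and 0.656% fell. At an unadjusted p under 0.05 there were 14 of 36 members, against 20.5% of all genes. The ratio had the same sign on all 4 arrays in 12 of 36 members, against 23.3% of all genes. The IlrunKO and WT channel levels did not overlap in 6 of 36, against 8.98%. The 8 channels were also fitted separately, with a dye term and the array as a replicate block. Like the ratios of the main fit, this pairs the samples hybridised together. It differs in that all genes share a common correlation between the channels of an array. With this block limma called 9 of 36 members, against 12.7% of all genes. The 7 added were Cyp2a4, Cyp2c54, Cyp2c67, Cyp2d10, Cyp2d13, Cyp2d34 and Cyp2j9, and their blocked p is given with each.

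The members leaned to neither side. Fitted ratios were above 0 in 19 and below 0 in 17, with a median of 0.027 against -0.0014 over all genes tested. The median size of the ratio, sign ignored, was 0.12 in the members and 0.075 over all genes. The Cyp2 probes were bright as a group, with a median log2 intensity of 14.03 against 8.27 over all genes tested.

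**Figure D1:**
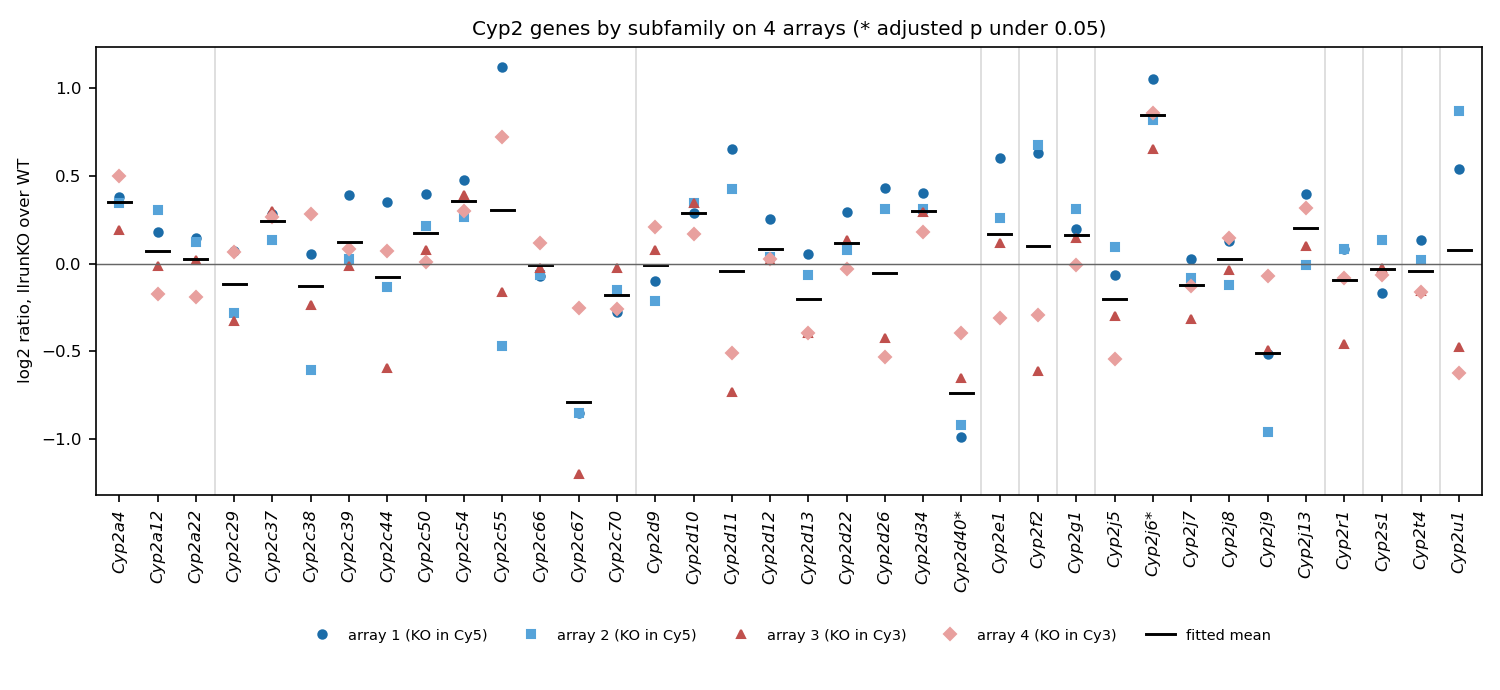
Log2 ratio of IlrunKO over WT (vertical axis) for the 36 Cyp2 genes tested (horizontal axis, split by subfamily), 1 symbol per array; black bars are the fitted means. Cyp2j6 sits between 0.65 and 1.05 on every array and Cyp2d40 between -0.99 and -0.40, while Cyp2d11, Cyp2d26, Cyp2f2 and Cyp2u1 lie above 0 on arrays 1 and 2 and below 0 on arrays 3 and 4.

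Among the Cyp2j genes, several of whose products are fatty acid epoxygenases, Cyp2j6 was higher in every IlrunKO sample. Its normalised log2 intensity was 9.79, 9.96, 9.87 and 9.67 in the WT channels of arrays 1 to 4 and 10.84, 10.78, 10.52 and 10.52 in the IlrunKO channels. The lowest IlrunKO level stood above the highest WT level, so the groups did not overlap. The log2 ratios were 1.05, 0.82, 0.65 and 0.86, with a mean of 0.85 ± 0.16 (SD, n = 4), which is 1.80-fold (95% confidence interval of the log2 ratio 0.67 to 1.02; limma adjusted p = 0.0347). A dimmer probe of Cyp2j6, at another position of the gene, gave 1.03, 0.67, 0.47 and 0.72 and also passed when every probe was fitted by itself (adjusted p = 0.0399). The call did not hold with Agilent's own processed signals (adjusted p = 0.0530), with plain median centring of each array (0.267), without array 3 (0.153) or without array 4 (0.124); the ratio stayed between 0.74 and 0.90 in all 19 alternative settings.

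The next member along chromosome 4, Cyp2j9, went the other way. Its WT levels were 9.95, 10.08, 10.22 and 10.33 and its IlrunKO levels 9.44, 9.12, 9.73 and 10.26. The IlrunKO level was below its partner on each array, but array 4 differed by only 0.07 and the groups overlapped. The mean ratio was -0.51 ± 0.36 (SD, n = 4; adjusted p = 0.101), so Cyp2j9 did not pass; it did with the array as a block (0.0433). Cyp2j6 exceeded Cyp2j9 by 1.57, 1.78, 1.14 and 0.93 in log2 ratio on arrays 1 to 4, a mean of 1.36 ± 0.39 (SD, n = 4), although their probes lie only 42690 bases apart; this pair was singled out after its values were seen and the difference was not tested.

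The remaining Cyp2j genes moved less. Cyp2j5, an epoxygenase of liver and kidney, had ratios of -0.07, 0.09, -0.30 and -0.54 (mean -0.20 ± 0.28, n = 4; adjusted p = 0.187). Cyp2j13 averaged 0.20 (adjusted p = 0.278), Cyp2j7 -0.12 (0.305) and Cyp2j8 0.03 (0.855), and none of these passed. The brightest Cyp2j13 probe, which gave that value, is also assigned to Cyp2j12 in the files. A dimmer probe listed for Cyp2j13 alone, at a low intensity of 6.46, gave -0.11, -0.034, 0.021 and 0.033 (adjusted p = 0.830 over probes). The brightest probe had 0.40, -0.01, 0.10 and 0.32, so the means of the 2 probes differed in sign. Cyp2j11 was not well above background in any of the 8 channels and was not tested. The median fitted ratio of the 6 tested Cyp2j genes was -0.05, with 3 above and 3 below 0.

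The stretches of 30 bases from the middle of the probes behind these values, as listed in the files, show what was read for Cyp2j6, its neighbour Cyp2j9 and Cyp2d40, described next. Aligned without gaps, none of these probes matched a probe of another member in 45 or more of its 60 bases. Probes were compared only with probes, not with the transcripts of other members, so this cannot show which mRNAs they bind.
Cyp2j6 brighter probe, mm9 chr4:96192532-96192591, minus strand: gggaagtagcaatggataccaatttgaatg
Cyp2j6 dimmer probe, mm9 chr4:96183239-96183298, minus strand: aaatcctctgtctctatatgatttgattgt
Cyp2j9 probe, mm9 chr4:96235281-96235340, minus strand: agagtgcgtgcaatgagactaagaaaactg
Cyp2d40 probe, mm9 chr15:82590288-82590347, minus strand: ggtcagtggttccagtcttctccccagttt
The coordinates are those of the whole probe; exons and introns were not assigned.

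**Figure D2:**
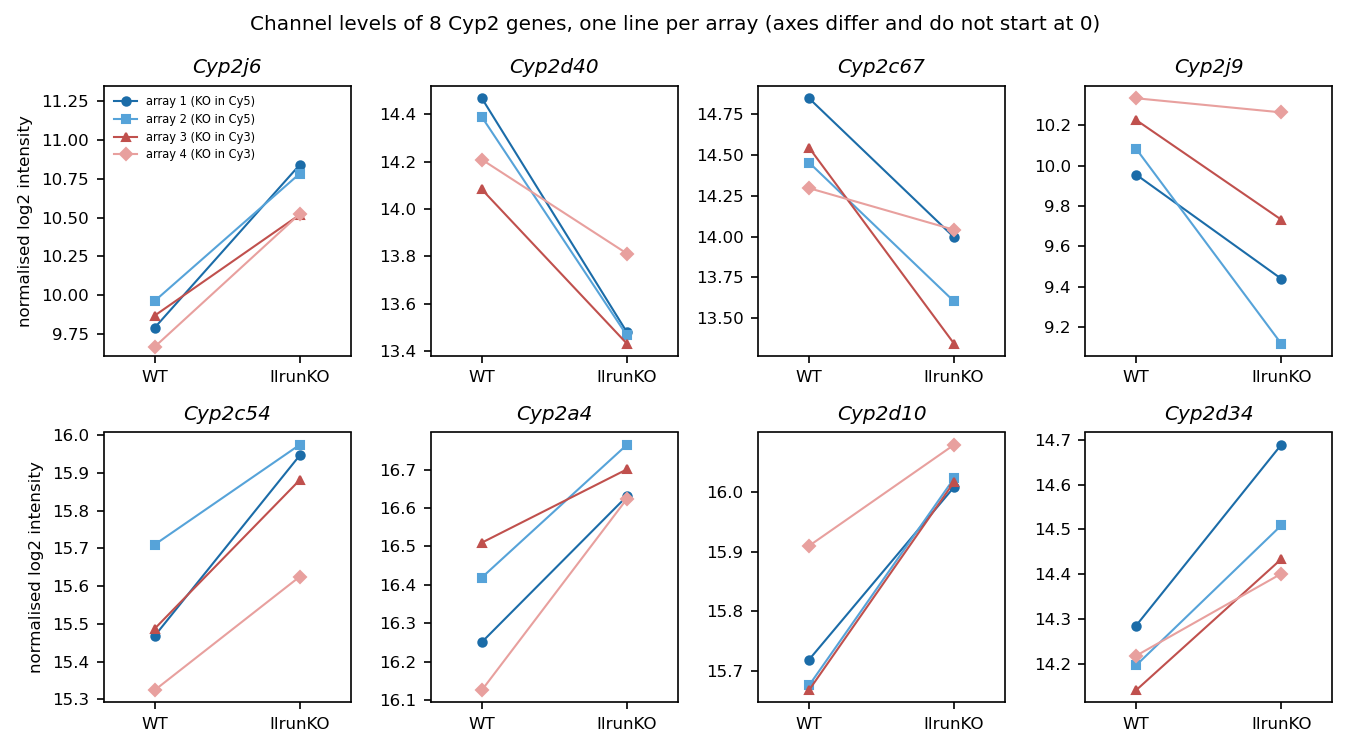
Normalised log2 intensity (vertical axis, a separate range in each panel) of 8 Cyp2 genes in the WT and IlrunKO channel of each array, 1 line per array. Every line rises for Cyp2j6 and falls for Cyp2d40, and in both genes the 4 IlrunKO points lie apart from the 4 WT points; in Cyp2j9 array 4 is nearly flat, at 10.33 and 10.26.

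The Cyp2d genes, relatives of the human drug-metabolising enzyme CYP2D6, held the only member that fell. Cyp2d40 had levels of 14.47, 14.39, 14.08 and 14.21 in WT and 13.48, 13.47, 13.43 and 13.81 in IlrunKO. The groups did not overlap, and the IlrunKO sample of array 4 was the highest of its group. The ratios were -0.99, -0.92, -0.65 and -0.40 (mean -0.74 ± 0.27, SD, n = 4; 95% confidence interval -0.90 to -0.58; adjusted p = 0.0347), a level 1.67-fold lower in IlrunKO. The call was lost without the term for dye orientation (adjusted p = 0.0525), with Agilent's processed signals (0.0605), with median centring (0.244), without array 3 (0.153) and without array 4 (0.123). The ratio lay between -0.89 and -0.68 in all 19 settings.

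Cyp2d34 and Cyp2d10, in the same cluster, pointed up without passing in the ratio fit. Cyp2d34 had ratios of 0.40, 0.31, 0.29 and 0.18 (mean 0.30 ± 0.09, n = 4; adjusted p = 0.0737, and 0.00682 with the array as a block), with no overlap between groups, but a dimmer probe of the gene gave 0.22, 0.08, -0.32 and -0.28. The 2 probes of Cyp2d34 thus disagreed on arrays 3 and 4. Cyp2d10 had ratios of 0.29, 0.35, 0.35 and 0.17 (mean 0.29 ± 0.08, n = 4; adjusted p = 0.0831, and 0.00699 with the block), again with no overlap between groups.

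Cyp2d13 pointed down, with ratios of 0.06, -0.06, -0.40 and -0.40 (mean -0.20 ± 0.23, n = 4; adjusted p = 0.124, and 0.0307 with the block). Cyp2d9, a steroid 16-alpha-hydroxylase found mainly in male liver, averaged -0.01 ± 0.19 (n = 4; adjusted p = 0.962). Cyp2d22, often named as the mouse counterpart of CYP2D6, averaged 0.12 (adjusted p = 0.358), and Cyp2d12 0.08 (0.469). Over the 9 Cyp2d genes, 4 ratios were above and 5 below 0, and their median was -0.01.

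The Cyp2c genes form the largest subfamily, with 13 members, of which 11 were tested and none passed in the fit of the ratios. Cyp2c67 had the greatest fitted fall of any tested member. Its WT levels were 14.85, 14.45, 14.54 and 14.30 and its IlrunKO levels 13.995, 13.60, 13.34 and 14.04, so the groups did not overlap. The ratios were -0.85, -0.85, -1.20 and -0.26, a mean of -0.79 ± 0.39 (SD, n = 4; 95% confidence interval -1.20 to -0.38; adjusted p = 0.0928, and 0.0101 with the array as a block). The dimmer Cyp2c67 probe gave -0.93, -0.98, -0.98 and -0.09, so with both probes array 4 was closest to 0.

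The brighter Cyp2c67 probe is also assigned to Cyp2c40 and Cyp2c68 in the files, and the Cyp2c68 probe to Cyp2c40 and Cyp2c69, so these values may mix several genes; the dimmer Cyp2c67 probe is listed for Cyp2c67 alone. Cyp2c68 was not tested because its spot was marked as an outlier on arrays 1 to 3. With those spots kept, an alternative chosen after seeing this gap, its ratios were -0.80, -0.93, -0.95 and -0.06 (mean -0.69; adjusted p = 0.106), close to those of Cyp2c67. The probe of Cyp2c68 and the dimmer probe of Cyp2c67 match in 55 of 59 aligned bases; a stretch of 30 bases of each shows how alike they are, with the differing bases in capitals.
Cyp2c67 dimmer probe, mm9 chr19:39683429-39683488, minus strand: AaattccatctatattccttcttatcCcag
Cyp2c68 probe, mm9 chr19:39763420-39763479, minus strand: GaattccatctatattccttcttatcAcag

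Cyp2c37, Cyp2c50 and Cyp2c54, which lie side by side further along the cluster and encode epoxygenases, pointed up on every array by their brightest probe. Cyp2c54 had ratios of 0.48, 0.26, 0.39 and 0.30 (mean 0.36 ± 0.10, n = 4; adjusted p = 0.0701, and 0.0126 with the block), although its WT and IlrunKO levels overlapped. Cyp2c37 had 0.28, 0.13, 0.30 and 0.27 (mean 0.25 ± 0.08; adjusted p = 0.0967). Cyp2c50 had 0.40, 0.22, 0.08 and 0.01 (mean 0.17 ± 0.17; adjusted p = 0.178). None of the 3 passed in the ratio fit. Other probes gave smaller values, some of them below 0. The dimmer Cyp2c37 probe had 0.19, -0.10, -0.05 and -0.02 (mean 0.0036). The other Cyp2c54 probes averaged 0.12, with -0.11 on array 2, and 0.22.

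Cyp2c70, which hydroxylates bile acids to muricholic acids, had ratios of -0.27, -0.15, -0.02 and -0.26 (mean -0.18 ± 0.11, n = 4; adjusted p = 0.211). Cyp2c29, an abundant epoxygenase, averaged -0.12 ± 0.22 (adjusted p = 0.564), with 0.07 on arrays 1 and 4 and -0.28 and -0.33 on arrays 2 and 3. Cyp2c38 averaged -0.13 (adjusted p = 0.679) and Cyp2c39 0.12 (0.433). Cyp2c44, the epoxygenase now called Cyp2c23, averaged -0.08 (0.815).

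Cyp2c55 varied most from array to array. Its ratios were 1.12, -0.47, -0.16 and 0.72, a mean of 0.30 ± 0.74 (SD, n = 4; adjusted p = 0.628), so the samples differed more within a genotype than between genotypes. Cyp2c29, Cyp2c38, Cyp2c39, Cyp2c44 and Cyp2c55 shared an order in which arrays 1 and 4 were both above arrays 2 and 3. That order, noticed after the values were seen, was found in 5 of 11 tested Cyp2c genes and in 15.01% of all genes tested. Cyp2c66 stood near the floor of the measurement at an intensity of 6.41 with a ratio of -0.01 (adjusted p = 0.939), its probe is also assigned to Cyp2c65, and Cyp2c65 itself was too dim to test.

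**Figure D3:**
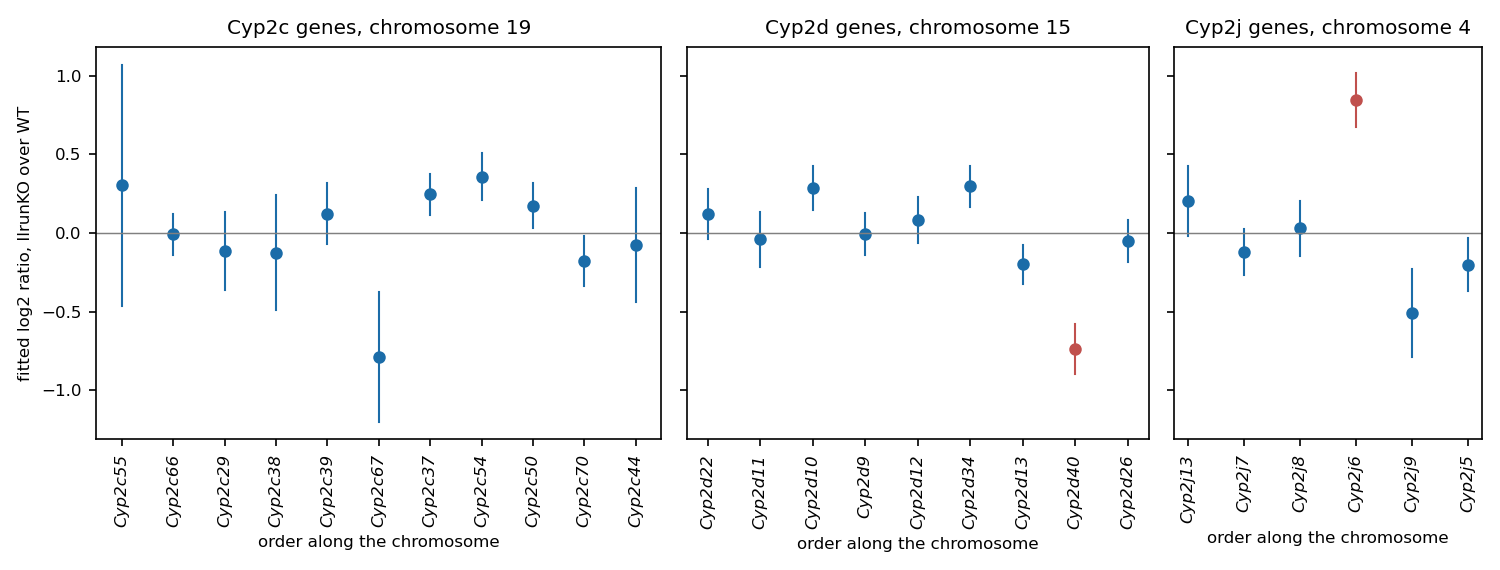
Fitted log2 ratio of IlrunKO over WT (vertical axis) with 95% confidence intervals for the tested genes of the Cyp2c, Cyp2d and Cyp2j clusters, in their order along chromosomes 19, 15 and 4 (horizontal axis, equal steps, not to distance); red marks an adjusted p under 0.05. Cyp2c67, Cyp2d40 and Cyp2j9 lie at -0.79, -0.74 and -0.51 while neighbours in the same clusters, such as Cyp2c54, Cyp2d34 and Cyp2j6, lie at 0.36, 0.30 and 0.85.

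Promoter windows of 250 bases before the transcription start were taken from RefSeq (GRCm38.p6) for the 31 members listed there, 33 windows in all since some genes have several. Cyp2c44, Cyp2c54, Cyp2d12, Cyp2d13, Cyp2d22, Cyp2d34, Cyp2g1, Cyp2j7 and Cyp2u1 had no window in the table. The letters CAAAGTCCA, a core recognised by the hepatocyte factor Hnf4a, were found on either strand in 4 of 33 windows, those of Cyp2c65, Cyp2c67, Cyp2c68 and Cyp2c70, and in 0.384% of 32851 windows of all genes. The TATAAA box stood in 17 of 33 windows against 12.4% of all. The nuclear receptor half-site AGGTCA stood in 6 of 33 against 14.02%, and TTCNNNGAA, the STAT5 motif, in 1 of 33 against 7.02%. The windows of Cyp2j6 and Cyp2j9 held none of the 4 motifs, and that of Cyp2d40 held TATAAA alone. Both strands were searched for every motif, and AGGTCA can share its last bases with the first of CAAAGTCCA.

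The windows of Cyp2c67, Cyp2c68 and Cyp2c70, the measured genes with CAAAGTCCA, are printed in the direction of transcription with all motif matches in capitals. Cyp2c67 and Cyp2c68 share most of their letters at an offset, with CAAAGTCCA beginning 125 and 77 bases before the start. In Cyp2c70 it begins 64 bases before the start, next to AGGTCA.
Cyp2c67, chr19:39649043-39649292, minus strand: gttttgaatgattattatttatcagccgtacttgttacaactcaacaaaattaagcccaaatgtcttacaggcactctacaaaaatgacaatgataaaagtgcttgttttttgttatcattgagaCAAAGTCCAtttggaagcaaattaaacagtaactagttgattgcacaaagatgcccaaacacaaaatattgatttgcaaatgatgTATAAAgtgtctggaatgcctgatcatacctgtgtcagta
Cyp2c68, chr19:39741102-39741351, minus strand: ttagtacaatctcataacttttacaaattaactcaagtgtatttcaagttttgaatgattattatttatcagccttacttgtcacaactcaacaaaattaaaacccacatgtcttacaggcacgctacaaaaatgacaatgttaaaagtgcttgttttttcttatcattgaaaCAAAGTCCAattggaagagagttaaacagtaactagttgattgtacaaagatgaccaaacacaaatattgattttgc
Cyp2c70, chr19:40187287-40187536, minus strand: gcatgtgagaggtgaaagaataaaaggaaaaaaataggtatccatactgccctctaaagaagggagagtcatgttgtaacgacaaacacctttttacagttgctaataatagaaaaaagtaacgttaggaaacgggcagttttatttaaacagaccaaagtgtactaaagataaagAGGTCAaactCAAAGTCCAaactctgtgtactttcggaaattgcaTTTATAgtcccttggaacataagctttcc

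The Cyp2a genes encode steroid and coumarin hydroxylases. Cyp2a4, a steroid 15-alpha-hydroxylase found mainly in female liver, had levels of 16.25, 16.42, 16.51 and 16.13 in WT and 16.63, 16.76, 16.70 and 16.62 in IlrunKO. The groups did not overlap. The ratios were 0.38, 0.35, 0.19 and 0.50 (mean 0.35 ± 0.13, SD, n = 4; adjusted p = 0.0844, and 0.0104 with the array as a block), which did not pass in the ratio fit; the second Cyp2a4 probe gave 0.19, 0.24, 0.26 and 0.43. Both probes are also assigned to Cyp2a5, the coumarin 7-hydroxylase, so the 2 genes cannot be told apart here.

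Cyp2a21-ps, a pseudogene whose name keeps it out of the 40, gave ratios of 0.31, 0.21, 0.29 and 0.72 (mean 0.38 ± 0.23, n = 4; adjusted p = 0.104). Its probe matches the brighter Cyp2a4 probe in 52 of 56 aligned bases. The stretch with the most differences, which are in capitals, was as follows.
Cyp2a4 brighter probe, mm9 chr7:27099880-27099939, plus strand: TAtgagtttcttgtcccGttgaTcctgggc
Cyp2a21-ps probe, mm9 chr7:27737339-27737398, plus strand: ACtgagtttcttgtcccAttgaGcctgggc
Cyp2a12, a testosterone hydroxylase, had ratios of 0.18, 0.30, -0.01 and -0.17 (mean 0.07 ± 0.21, n = 4; adjusted p = 0.514). Cyp2a22 was dim, at 6.44, with a mean of 0.03 (adjusted p = 0.852).

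Of the subfamilies with a single gene, none passed. Cyp2e1, which oxidises ethanol, acetone and paracetamol, was the brightest member at 17.2, with ratios of 0.60, 0.26, 0.12 and -0.31 (mean 0.17 ± 0.38, n = 4; adjusted p = 0.415), so the arrays differed in sign. Cyp2g1, known from the olfactory mucosa, had 0.20, 0.31, 0.15 and -0.01 (mean 0.16; adjusted p = 0.19998). Cyp2r1, the vitamin D 25-hydroxylase, averaged -0.09 (adjusted p = 0.554), and its dimmer probe -0.37, -0.29, -0.30 and -0.12, below 0 on every array (adjusted p = 0.0888 over probes). Cyp2s1 averaged -0.03 (0.853) and Cyp2t4 -0.04 (0.692), at intensities of 6.86 and 7.23. Cyp2w1 was well above background in 0 of 4 IlrunKO and 2 of 4 WT channels and was not tested.

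Some members split by dye orientation instead of genotype. Cyp2d11 had ratios of 0.65 and 0.43 with IlrunKO in Cy5 and of -0.73 and -0.51 with IlrunKO in Cy3. Cyp2d26 had 0.43 and 0.31 against -0.42 and -0.53. Cyp2f2, which activates naphthalene, had 0.63 and 0.68 against -0.61 and -0.29.

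The orientation term of limma, which is the distance of each orientation's mean ratio from the overall mean, was 0.58 for Cyp2d11, 0.43 for Cyp2d26, 0.55 for Cyp2f2 and 0.63 for Cyp2u1. The adjusted p was 0.0822 for Cyp2d11, Cyp2d26 and Cyp2u1 and 0.0825 for Cyp2f2, so none passed at 0.05, and limma called 0 of 36 members and 0 of all genes for orientation. At an unadjusted p under 0.05 there were 10 of 36 members, against 18.3% of all genes. Each orientation also holds its own mice, so dye and mouse cannot be told apart. For the genotype term these 4 had an adjusted p of 0.793, 0.625, 0.486 and 0.616.

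Bright probes often split this way. Of 138 genes tested with a log2 intensity above 16, 77 were above 0 on arrays 1 and 2 and below 0 on arrays 3 and 4 (55.8%), against 14.3% of all genes tested; of the 5 members that bright, 3 did so. The hepatocyte marker Alb, for one, had ratios of 0.54, 0.21, -1.07 and -1.11. The part of brightness in the values of Cyp2d11, Cyp2d26 and Cyp2f2 was not tested.

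**Figure D4:**
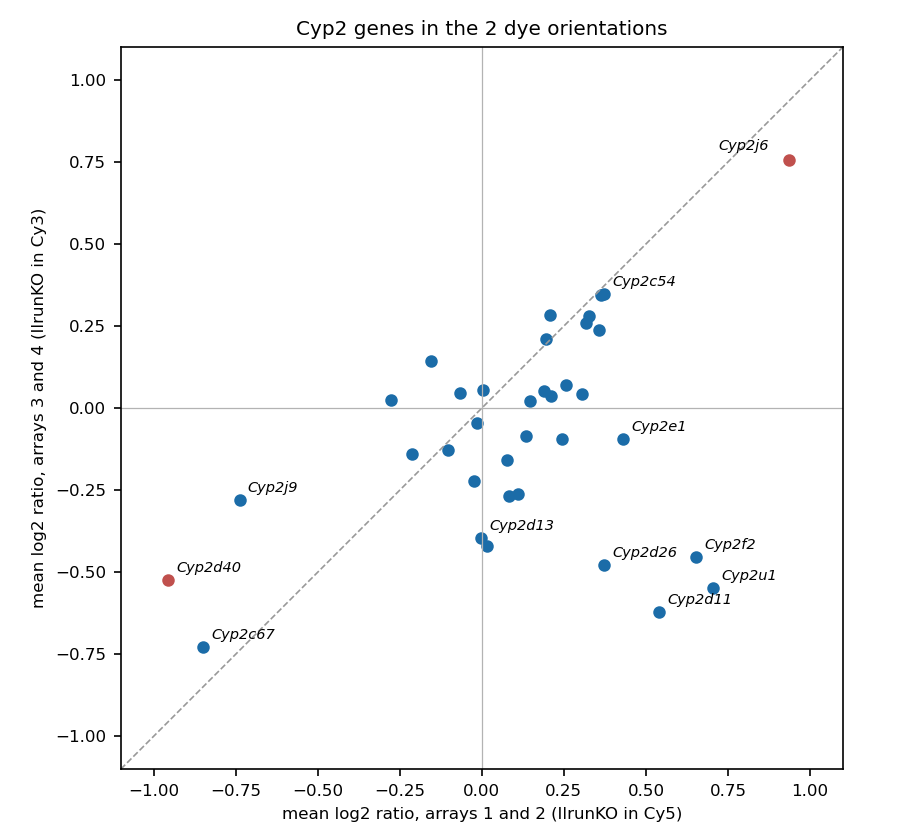
Mean log2 ratio of arrays 1 and 2, with IlrunKO in Cy5 (horizontal axis), against that of arrays 3 and 4, with IlrunKO in Cy3 (vertical axis), 1 point per tested Cyp2 gene; red marks an adjusted p under 0.05 for genotype and the dashed line equal values. Cyp2j6 and Cyp2d40 keep their sign in both orientations, whereas Cyp2d11, Cyp2d26, Cyp2f2 and Cyp2u1 lie in the lower right, with orientation terms of 0.43 to 0.63.

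Cyp2u1, a fatty acid hydroxylase, had ratios of 0.54, 0.87, -0.48 and -0.62 by its brighter probe. That probe is a run of TG repeats for much of its length, shown here with the 16 bases it shares with the largest number of other probes in capitals.
Cyp2u1 brighter probe, mm9 chr3:130996343-130996402, minus strand: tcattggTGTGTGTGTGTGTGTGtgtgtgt
It shares a run of at least 16 bases, on either strand, with 109 probes named for other genes, none of them a Cyp2 gene. Their median ratios were 0.45, 0.80, -0.44 and -0.59 on arrays 1 to 4, and 100 of 109 were above 0 on arrays 1 and 2 and below 0 on arrays 3 and 4. The dimmer Cyp2u1 probe, which shares no such run, gave 0.27, 0.06, 0.12 and 0.43 (mean 0.22; adjusted p = 0.1996 over probes). The values of the brighter probe therefore cannot be assigned to Cyp2u1 alone.

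Genes that serve the Cyp2 enzymes were counted in the same fit, where 20.5% of all genes had an unadjusted p under 0.05. Of 5 redox partners, 0 passed and 1 had an unadjusted p under 0.05, Cyb5a, the cytochrome b5 that donates electrons, at 0.27 (adjusted p = 0.0963); the next was Cyb5r3 at -0.10 (0.355), and the reductase Por stood at -0.01. Of 9 genes of haem synthesis and breakdown, 0 passed. Alas1, the rate-limiting enzyme of haem synthesis in liver, had ratios of -0.72, -0.52, -0.36 and -1.29 (mean -0.72 ± 0.41, n = 4; adjusted p = 0.107), below 0 on every array, and Cpox stood at 0.19 (0.297). Of 15 regulators of Cyp2 genes 0 passed and 3 had an unadjusted p under 0.05. Those with the smallest p were Ppara at -0.18 (0.131) and Cebpa at 0.21 (0.211). Cebpa had ratios of -0.12, -0.24, 0.43 and 0.78 on arrays 1 to 4. Hnf4a, also under 0.05 unadjusted, stood at -0.13 (0.239) with -0.47, -0.34, 0.18 and 0.11. The receptors Nr1i3 and Nr1i2 stood at 0.11 (0.674) and 0.29 (0.376).

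Sex bias in mouse liver follows growth hormone, so both sets were counted. Of 10 growth hormone and sex-bias regulators 0 passed, with Onecut1 at -0.27 (adjusted p = 0.120) and Socs2 at -0.35 (0.143). The sign of Socs2 followed the dye orientation, with ratios of 0.66, 0.34, -1.0004 and -1.40 on arrays 1 to 4. Of 10 male-biased genes 1 rose, Mup20, a major urinary protein, with ratios of 2.53, 2.88, 0.29 and 1.04 (mean 1.68; adjusted p = 0.0347). The list's median was -0.21, with 3 above and 7 below 0. Of 7 female-biased genes tested 0 passed, the smallest p being those of Cyp2b9 at 1.20 (0.0639) and Cyp2a4. A list of arachidonic acid epoxygenases and epoxide hydrolases had 13 genes tested, of which 1 rose, Cyp2j6. Its median was 0.056 against -0.0014 over all genes. The action of the products on arachidonic acid was not measured here. Apart from Ephx1 and Ephx2, the listed genes are Cyp2 members already counted above, so the list is no separate set.

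Markers of the liver's cell types were read beside these values. None of 7 hepatocyte markers passed (6 below 0, median -0.36). Trf at -0.62 (adjusted p = 0.0740) and Alb at -0.36 (0.0861) had the smallest p. The sign of this list's median followed the dye orientation. With IlrunKO in Cy5 it was 0.22 (array 1) and 0.21 (array 2). With IlrunKO in Cy3 it was -0.75 (array 3) and -0.51 (array 4). Trf had ratios of -0.24, 0.35, -1.37 and -1.23, while Apoa1 was below 0 and Asgr1 above 0 throughout. None of 7 pericentral markers passed, with Rhbg at 0.76 (0.0997) and Lgr5 at -0.29 (0.143). Of 7 periportal markers Hal rose by 0.72 (0.0347), while that list had 3 above and 4 below 0 and a median of -0.053. All 7 Kupffer and macrophage markers had fitted ratios above 0 (median 0.40) and 0 passed; 5 of the 7 were below 0 on array 1, where the median was -0.24, against 0.83, 0.38 and 0.56 on arrays 2 to 4; Cd68 stood at 0.21 (0.116) and Marco at 1.33 (0.229). All 7 stellate markers were below 0 (median -0.28) and 0 passed, Colec11 at -0.34 (0.0527) and Hand2 at -0.31 (0.0785) having the smallest p. Of 7 endothelial markers 0 passed, with Oit3 at -0.26 (0.0785) and Stab1 at -0.16 (0.224), and of 4 cholangiocyte markers tested 0 passed, with Sox9 at 0.32 (0.179) and Spp1 at -0.12 (0.277). Of 4 adipocyte markers tested Cfd rose by 3.82 (0.0469), while Adipoq, Plin1 and Lep were not well above background in any channel. Of 4 lymphocyte markers tested Nkg7 fell by 0.76 on the log2 scale (0.0303). The lymphocyte list had 3 below 0 and 1 above, Cd3g at 0.18 (0.156). The mean level of the stellate list was 8.63 to 8.87 in IlrunKO and 8.85 to 9.14 in WT, and that of the Kupffer list 10.4 to 11.1 in IlrunKO and 10.04 to 10.6 in WT (log2 intensity); their part in the Cyp2 ratios was not tested.

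In other P450 families, the median size of the ratio, sign ignored, was 0.75 in 7 Cyp3a genes (6 below 0), 1.20 in 3 Cyp2b genes (3 above 0), 0.20 in 12 genes of the remaining families, 0.14 in 17 Cyp4 genes and 0.057 in 3 Cyp1 genes, against 0.12 in the 36 members. None of the Cyp3a, Cyp2b or Cyp1 genes passed; 1 of the Cyp4 genes and 1 of the remaining 12 fell. Differences between the families were not tested.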

How the data were processed

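The authors deposited 4 two-colour scanner files with spot intensity and a log10 ratio (per the file headers, written by Feature Extraction 10.10.1.1) and a table of log2 values, for which the submitters' processing notes name limma. That table holds IlrunKO over WT on every array (r of 0.907 to 0.930 with the ratios used here); the sources used here do not say how it was corrected and normalised. The log10 ratio served only to check direction.

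Intensity was corrected with normexp (offset 50) and normalised by loess within arrays in limma 3.58.1 (R 4.3.3), without spots marked as outliers; the brightest probe stood for each gene. Each gene was fitted by lmFit and eBayes with a genotype and an orientation term, which left 2 residual degrees of freedom. Tests were two-sided and adjusted by Benjamini-Hochberg over 19657 genes. The fit was also run on simulated data drawn under its own assumptions, which cannot show whether those assumptions hold here. Channel levels came from quantile scaling of mean intensity (Aquantile).

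Named were members that passed, the brightest and the smallest p of each subfamily, single-gene subfamilies, members with disagreeing probes or not tested, and from other lists those that passed or else the 2 smallest p. Members and lists were chosen with earlier results of these data known. Alternatives covered background, normalisation, filter, probes, variance, separate channels, threshold, names and each array left out. Figures used matplotlib 3.10.9.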

Additional observations from a re-analysis of the deposited data

Results flagged for a closer look

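Dixon's test was applied to the 4 array ratios of each of the 36 members tested. It singled out Cyp2d12 on array 1, whose log2 ratio of 0.25 stood apart from 0.04, 0.02 and 0.02 on the other arrays. Chance alone flags about 1 in 20 such groups.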

How the results depend on the processing

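The 2 calls among the members became 1 without the orientation term, 0 with Agilent's processed signals, 0 with median centring, 8 at an adjusted p under 0.10 (6 up, 2 down) and 0 to 2 when single arrays were left out, 0 coming without array 3 or without array 4. With separate channels and the array as a replicate block, which pairs the samples hybridised together as the main ratios also do, 9 members passed (5 up, 4 down). They were Cyp2j6, Cyp2a4, Cyp2c54, Cyp2d10 and Cyp2d34 up and Cyp2d40, Cyp2c67, Cyp2d13 and Cyp2j9 down. The 270 calls over all genes became 442 without background correction, 80 with processed signals, 449 with the deposited values, 1 with median centring, 412 with a trended and robust variance, 2486 with the replicate block, 605 without it, 1118 at 0.10 and 1 to 464 without single arrays. No member was called for orientation, but 21 were with median centring and 4 at 0.10. Subfamily medians moved by more than the spread of the arrays for Cyp2a with processed signals (0.32) and for Cyp2d with median centring (-0.16).

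No called member changed sign. Among the others, median centring turned Cyp2a12 to -0.090, Cyp2c39 to -0.015, Cyp2c66 to 0.022, Cyp2d12 to -0.077, Cyp2d22 to -0.015, Cyp2e1 to -0.020, Cyp2f2 to -0.087, Cyp2j8 to -0.11 and Cyp2u1 to -0.066. Cyp2c66 turned to 0.067 without background correction, 0.063 with processed signals and 0.075 with the deposited values, and Cyp2c38 to 0.013 with the mean of its probes. Leaving out single arrays gave ranges that cross 0: -0.028 to 0.078 for Cyp2a22, -0.29 to 0.039 for Cyp2c38, -0.24 to 0.092 for Cyp2c44, -0.093 to 0.70 for Cyp2c55, -0.044 to 0.025 for Cyp2c66, -0.040 to 0.027 for Cyp2d9, -0.097 to 0.016 for Cyp2d11, -0.034 to 0.093 for Cyp2j8, -0.19 to 0.00084 for Cyp2r1, -0.11 to 0.047 for Cyp2s1 and -0.0046 to 0.16 for Cyp2u1. The causes were not tested. Signal near background limits Cyp2a22, Cyp2c65, Cyp2c66, Cyp2j11 and Cyp2w1.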
